A study of Mus musculus with 8 samples.

Results

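The complement genes followed here were *Colec11*, *Colec12*, *C2*, *C3*, *C4b*, *Cfb*, *Masp1*, *Serping1* and *Cd59a*, measured in the hypothalamus. These 9 were taken by name from 34797 entries in the gene name column of the array, and they had 13 of its 55681 probes other than controls. Of the 13, 11 passed the filter of being well above background on 4 or more arrays, as did 37314 probes in all. The 9 genes were chosen by their place in the complement system, with the differences between MS and control mice on these same arrays already known. Their differences between the groups are therefore given as a description, with no test.

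Hypothalami came from adult males of the C3H/HeN strain. From postnatal day 2 to 14, the 4 MS mice went through maternal separation, with unpredictable stress of their dam, while the 4 control mice were left undisturbed. All were weaned on day 21, were trained in operant cages for palatable food, and were fasted before the brain was collected. The comparison asks whether separation early in life leaves a trace in the adult hypothalamus, here in its complement genes. The tissue was dissected whole, so that fewer cells of a type and less RNA per cell cannot be told apart. From each, 200 ng of RNA was made into Cy3-labeled cRNA for an array of its own, and the 8 arrays lay in 2 rows of a slide with 2 mice of each group in each row. Mice are named by group and by the number in their label. Litters are not given in the labels, and errors measure the spread between these mice.

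Complement is a cascade of proteases and binding proteins that marks surfaces for removal. The classical pathway starts with C1q, the lectin pathway with collectins, ficolins and mannose-binding lectins that bind sugars and carry MASP proteases, and the alternative pathway amplifies both through factor B. All 3 meet at C3, and regulators such as C1 inhibitor and CD59 hold the cascade in check. In the brain, microglia are the main source of C1q, astrocytes make much of the C3 and C4, and complement is known for tagging synapses that microglia remove.

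The arrays measured 34079 to 39601 probes well above background, with 0 saturated spots, and MS 7.6 was the dimmest array, with a 75th percentile of 499 intensity units against 751 to 902 in the others. Of 10 genes that mark the hypothalamus, 9 were well above background on all 8 arrays and *Otp* was on 4. Pituitary hormone genes stood apart in control 6.2, where the signals of 6 such genes summed to 295 times the 75th percentile of the array, against 18.7 to 35.4 in the other 7 mice. Values without control 6.2 are given for *Colec11*, *Colec12*, *C2* and *Cfb*.

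A level below is the log2 of the processed signal of a probe minus the 75th percentile of its array. It can be compared between mice but not between probes. The sequences show what the arrays read of the members on which the results turn. They run 5′ to 3′ as in the array files, with positions on mm9. The probes of *C3* (probe B), *Cfb* and *Serping1* (probe B) are shown whole, and of the others the first 30 of 60 bases are shown.
*Colec11*, chr12:29279240-29279299, minus strand: attatggctaaccactcggaaggatgctgt
*C3* probe A, chr17:57343416-57343475, minus strand: attcacagaatctatggtggtttatggttg
*C3* probe B, chr17:57343678-57343737, minus strand: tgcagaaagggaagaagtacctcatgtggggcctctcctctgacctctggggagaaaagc
*C4b*, chr17:34865328-34865387, minus strand: cctcactggattagaggctctgctctacag
*Cfb*, chr17:34993502-34993858, minus strand: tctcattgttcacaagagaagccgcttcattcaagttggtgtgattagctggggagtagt
*Serping1* probe B, chr2:84605968-84607474, minus strand: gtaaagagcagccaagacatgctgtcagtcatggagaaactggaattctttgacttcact
The probes of *Cfb* and of *Serping1* (probe B) span 357 and 1507 bases of the genome with 60 bases, so they cross at least 1 intron. The probe of *C4b* carries accessions of both *C4b* and its near-identical neighbor *C4a*, which has no probe named for it alone, so its level may hold the RNA of both copies. *C2* and *Cfb* are direct neighbors on chromosome 17, with 0 protein-coding genes between them.

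No complement gene differed between the groups by the test across all probes. With limma and Benjamini-Hochberg adjustment, 0 of the 37314 probes passed an adjusted p of 0.05 (0% called), and thus 0 of the 11 member probes. The smallest adjusted p of any probe was 0.135. At an unadjusted p under 0.05, 2 of the 11 member probes passed, those of *Colec11* and *C3* (probe A), against 3.4% of all probes. The groups did not overlap for 1 of the 11, *Colec11*, against 2.03% of all probes. Since the genes were chosen with this contrast known, nothing is read from these counts. The difference lay below 0 for 9 of the 11 member probes and above 0 for *Colec11* and *Cd59a*.

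**Figure D1:**
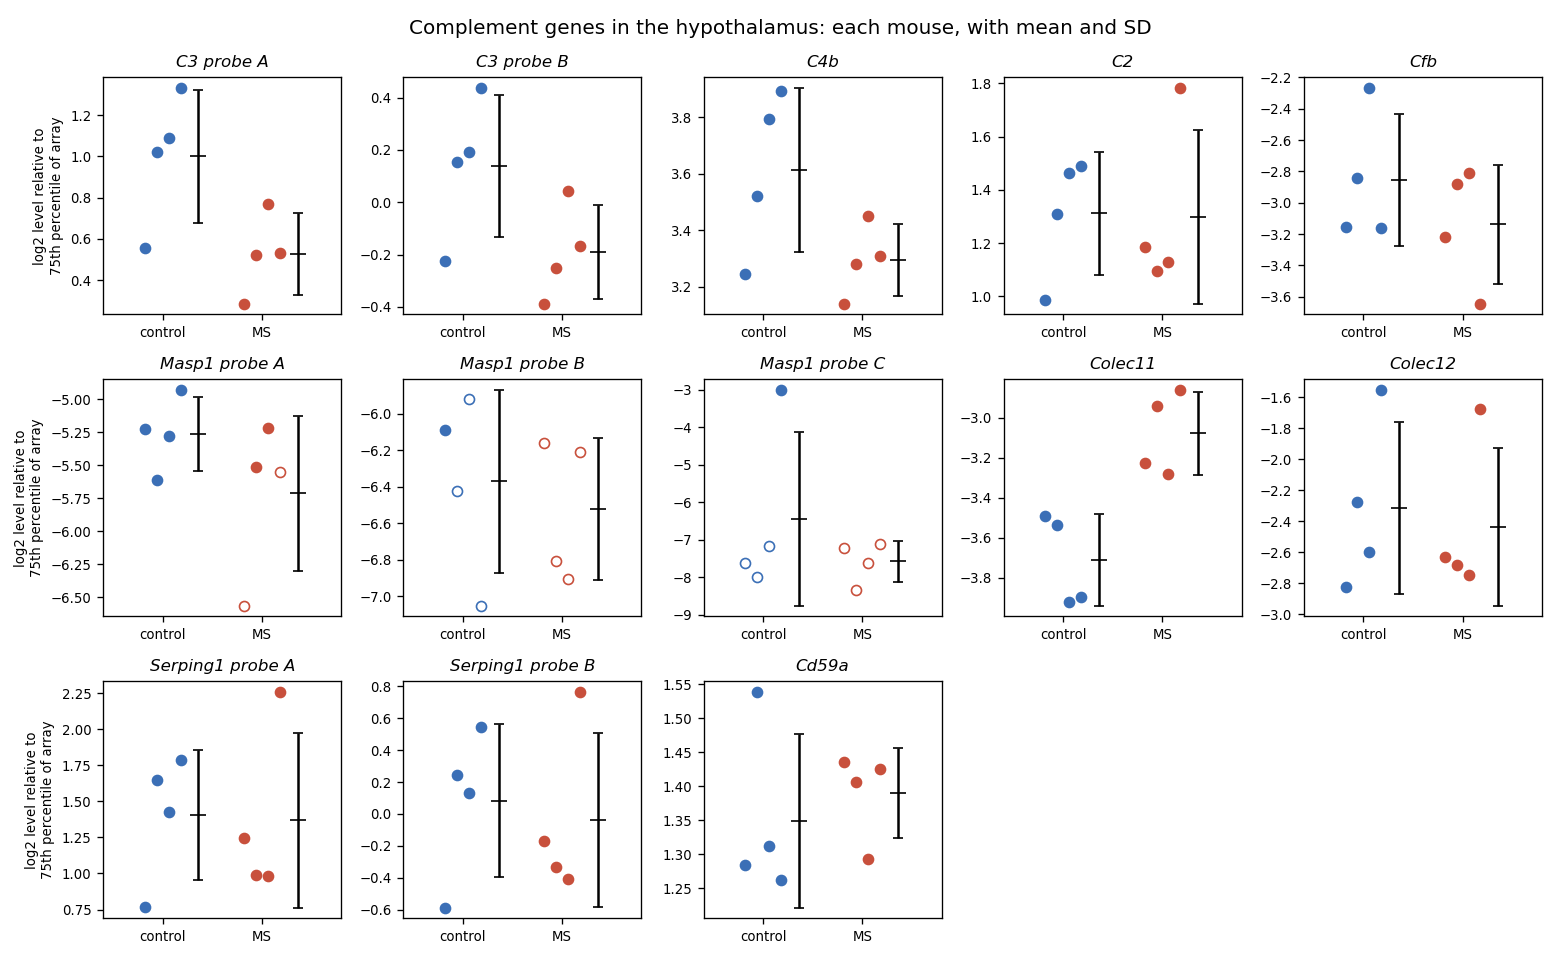
Level of each complement probe in each mouse (vertical axis, log2 relative to the 75th percentile of the array; each panel has its own scale), with control mice in blue and MS mice in red. Filled points are well above background and open points are not; bars give the mean and SD of 4 mice. The 4 MS mice lie above all 4 control mice for *Colec11*, and the groups overlap in every other panel.

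*Colec11* encodes a soluble collectin of the lectin pathway, which binds sugars and carries MASP proteases. Its level was -3.92 in control 6.2, -3.49 in control 8.2, -3.54 in control 8.4 and -3.89 in control 8.5. It was -3.23 in MS 5.3, -3.28 in MS 7.1, -2.94 in MS 7.2 and -2.86 in MS 7.6. On this scale every MS mouse thus lay above every control mouse, and the gap between the lowest MS mouse and the highest control mouse was 0.21. Before scaling, MS 7.6, the dimmest array, read 68.7 intensity units, below control 8.2 at 76.2 and control 8.4 at 69.7. Its place above all control mice therefore rests on the scaling. The other MS mice read 83.2 to 117.6 units, above all control mice. The mean was -3.71 ± 0.23 (SD, n = 4) in control and -3.08 ± 0.21 (SD, n = 4) in MS mice, a difference of 0.63 with a limma SE of 0.14, or 1.55-fold.

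The probe of *Colec11* was dim, and the size of its difference moved with the background correction. It was 0.38 after normexp correction and 0.39 in the authors' own table, and 0.63 in the values used here. Within the rows of the slide it was 0.43 in row 1 and 0.84 in row 2. It stayed above 0 in all 19 alternatives, and leaving out control 6.2 gave 0.56. The filters, the block for the row and the variance model leave the difference unchanged by design. Since the groups do not overlap, leaving out a mouse or taking a row alone could not turn its sign either.

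The other genes of the lectin pathway did not share this pattern in their values. *Masp1* encodes a serine protease that circulates with collectins and ficolins and starts the cascade. Its probe A was well above background in all 4 control mice and in 2 of 4 MS mice, MS 7.1 and MS 7.2. The levels were -5.28 in control 6.2, -5.22 in control 8.2, -5.61 in control 8.4 and -4.93 in control 8.5, against -6.56 in MS 5.3, -5.21 in MS 7.1, -5.51 in MS 7.2 and -5.55 in MS 7.6. The groups overlapped, and the low value of MS 5.3 set much of the difference of -0.45 (SE 0.28), which was -0.16 without that mouse. After normexp correction the difference was -0.0018. Probes B and C of *Masp1* were not well above background in any MS mouse and were so in 1 control mouse each, control 8.2 for probe B and control 8.5 for probe C. Probe B ran from -7.05 to -5.92 in control and from -6.90 to -6.16 in MS mice, and probe C from -7.99 to -3.01 and from -8.34 to -7.12. They were not tested and no fold is given for them.

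*Colec12* encodes a collectin with a transmembrane part that acts as a scavenger receptor. Its levels were -2.60 in control 6.2, -2.83 in control 8.2, -2.28 in control 8.4 and -1.55 in control 8.5. In MS mice they were -2.63 in MS 5.3, -2.75 in MS 7.1, -2.69 in MS 7.2 and -1.68 in MS 7.6. One mouse of each group, control 8.5 and MS 7.6, lay well above its group, and the rest overlapped. The difference of -0.12 (SE 0.32) ran from -0.37 without MS 7.6 to 0.13 without control 8.5, and was -0.22 without control 6.2. Its within-group SD of 0.53 was larger than that of 95.5% of all probes tested.

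*C3*, on which all 3 pathways converge, had lower means in MS mice by both of its probes. Probe A, printed at 10 spots of each array, read 1.09 in control 6.2, 0.56 in control 8.2, 1.02 in control 8.4 and 1.33 in control 8.5. It read 0.29 in MS 5.3, 0.77 in MS 7.1, 0.52 in MS 7.2 and 0.53 in MS 7.6. Controls 6.2, 8.4 and 8.5 lay above all MS mice, and control 8.2 lay among them. The mean was 0.999 ± 0.324 (SD, n = 4) in control and 0.53 ± 0.20 (SD, n = 4) in MS mice, a difference of -0.47 (SE 0.17), with control 1.39-fold over MS.

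The position of control 8.2 was not a matter of single spots. The SD among the 10 spots of an array was 0.025 to 0.050, less than the distance between most mice. Probe B read the mice in the same way, with 0.19, -0.22, 0.15 and 0.44 in control 6.2, 8.2, 8.4 and 8.5, and -0.39, 0.04, -0.25 and -0.17 in MS 5.3, 7.1, 7.2 and 7.6. Its difference was -0.33 (SE 0.15), and after subtraction of the group means the probes had r = 0.99 over the 8 mice, given as a description since they read 1 transcript. The difference of probe A was -0.38 in row 1 and -0.56 in row 2 of the slide, ran from -0.62 without control 8.2 to -0.36 without control 8.5, and kept its sign in all 19 alternatives. Some of these, such as the filters, leave the difference unchanged by design.

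**Figure D2:**
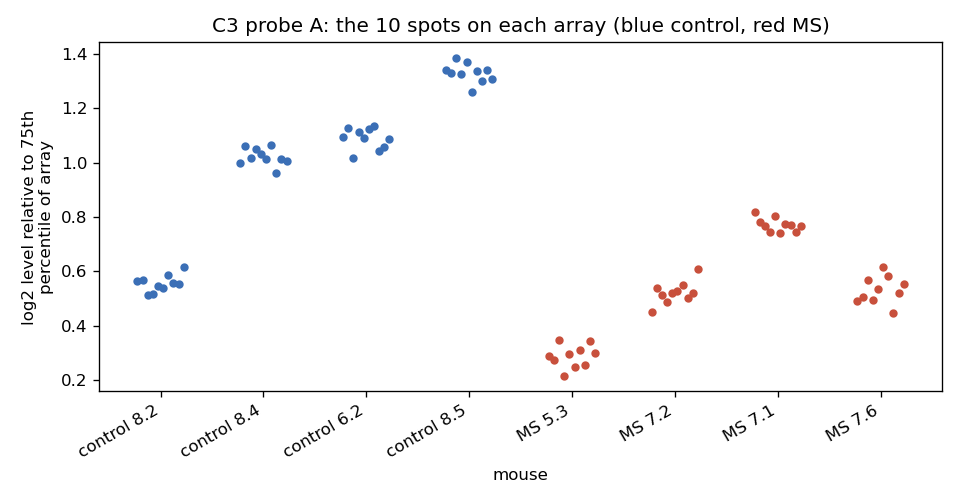
The 10 spots of *C3* probe A on each array (vertical axis, log2 relative to the 75th percentile of the array; horizontal axis, mouse; blue control, red MS). Spots of a mouse lie close together, with an SD of at most 0.050, and control 8.2 falls within the range of the MS mice.

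*C4b* encodes the C4 protein that C1s and MASP2 cleave to build the C3 convertase. Its level was 3.79 in control 6.2, 3.25 in control 8.2, 3.52 in control 8.4 and 3.89 in control 8.5, against 3.14 in MS 5.3, 3.45 in MS 7.1, 3.28 in MS 7.2 and 3.31 in MS 7.6. As for *C3*, 3 control mice lay above all MS mice and control 8.2 lay among them. The mean was 3.61 ± 0.29 (SD, n = 4) in control and 3.29 ± 0.13 (SD, n = 4) in MS mice, a difference of -0.32 (SE 0.14). It was -0.17 in row 1 and -0.46 in row 2 of the slide, and stayed below 0 in all 19 alternatives, some of which leave it unchanged by design.

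*Cfb* encodes factor B, the protease of the alternative pathway. It read -2.27 in control 6.2, -3.16 in control 8.2, -2.84 in control 8.4 and -3.16 in control 8.5, against -3.22 in MS 5.3, -2.81 in MS 7.1, -2.88 in MS 7.2 and -3.64 in MS 7.6. The groups overlapped over most of their range. The difference of -0.28 (SE 0.25) was -0.08 without control 6.2, the mouse with the high pituitary hormone genes, and -0.11 without MS 7.6. It was -0.05 in row 1 and -0.51 in row 2 of the slide, -0.12 after normexp correction and -0.17 in the authors' table.

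*C2* encodes the protease that joins C4b in the convertase of the classical and lectin pathways. It read 1.46 in control 6.2, 0.99 in control 8.2, 1.31 in control 8.4 and 1.49 in control 8.5. The MS mice had 1.19 (MS 5.3), 1.13 (MS 7.1), 1.096 (MS 7.2) and 1.78 (MS 7.6), so that the highest value of all came from an MS mouse. The difference was -0.01 (SE 0.18, 95% interval -0.42 to 0.39) and turned to 0.01 with median scaling and to 0.04 without control 6.2, while it was -0.18 without MS 7.6.

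Of the regulators, *Serping1* encodes C1 inhibitor, which blocks C1r, C1s and the MASP proteases. Its probe A read 1.42 in control 6.2, 0.77 in control 8.2, 1.65 in control 8.4 and 1.79 in control 8.5, against 1.24 in MS 5.3, 0.98 in MS 7.1, 0.99 in MS 7.2 and 2.26 in MS 7.6. The group means were 1.41 and 1.37, but the mice spanned 1.49 on the log2 scale, and the within-group SD of 0.53 was larger than that of 95.6% of all probes tested. The difference of -0.04 (SE 0.33, 95% interval -0.79 to 0.71) was -0.34 without MS 7.6 and 0.09 without control 8.5. Probe B read the mice in the same way, with 0.13, -0.59, 0.24 and 0.55 in control 6.2, 8.2, 8.4 and 8.5, and -0.17, -0.41, -0.34 and 0.76 in MS 5.3, 7.1, 7.2 and 7.6, and a difference of -0.12 (SE 0.31).

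*Cd59a* encodes the membrane protein that blocks assembly of the membrane attack complex. It varied least of the 9 genes, with 1.31, 1.28, 1.54 and 1.26 in control 6.2, 8.2, 8.4 and 8.5, and 1.44, 1.29, 1.41 and 1.42 in MS 5.3, 7.1, 7.2 and 7.6. Its within-group SD of 0.10 was larger than that of 30.7% of all probes tested. The difference was 0.04 (SE 0.08), with a 95% interval of -0.13 to 0.22.

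**Figure D3:**
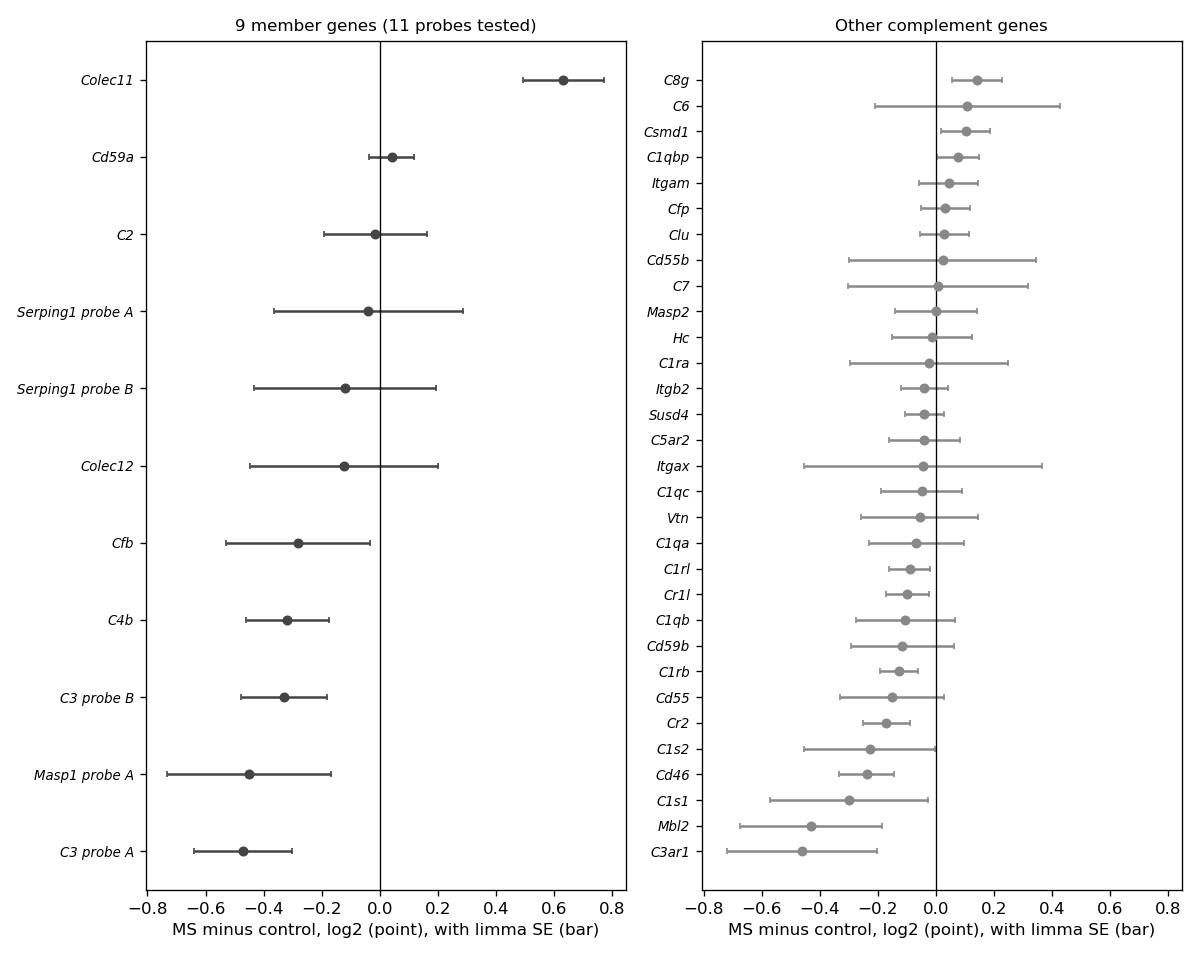
Difference between MS and control mice (horizontal axis, log2, MS minus control; bars are the limma SE, n = 4 per group) for the 11 member probes tested (left) and for 31 of the 32 other complement genes tested (right). *Colec11* at 0.63 lies furthest to the right and *C3* probe A at -0.47 furthest to the left of the members; the others run from -0.46 for *C3ar1* to 0.14 for *C8g*.

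The rest of the complement system was read from a list of 45 other genes, of which 44 were on the array and 32 were tested. By limma over all probes, 0 rose and 0 fell, and 1, *Cd46*, had an unadjusted p under 0.05, against 3.4% of all probes. The median difference of the 32 was -0.05, against -0.0012 over all probes tested, with 10 above 0 and 22 below. None of the 32 had groups that did not overlap, against 2.03% of all probes. Nothing is read from either count.

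Of classical recognition and its proteases, 8 of 8 genes tested had differences below 0, from -0.30 to -0.02, and none passed the test, while 6 of the 8 turned above 0 in at least 1 of the alternatives. The scalings alone turned *C1ra* and *C1rb*. *C1qa*, *C1qb* and *C1qc*, the chains of C1q, had differences of -0.07 (SE 0.16), -0.10 (SE 0.17) and -0.05 (SE 0.14). *C1qa* was lowest in control 8.2 at 1.31 and in MS 5.3 at 1.31, the same mice that were lowest in their group for *C3* and *C4b*. *C1ra*, a protease of the C1 complex, differed by -0.02 (SE 0.27).

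In the lectin pathway, 2 of 6 other genes were above the background filter. *Mbl2*, a mannose-binding lectin, differed by -0.43 (SE 0.24) and *Masp2*, the protease that cleaves C4 and C2, by 0.0014 (SE 0.14). *Mbl1*, *Fcna*, *Fcnb* and *Colec10* did not pass the filter, and neither did *Cfd* (factor D), *Cfi* (factor I) and *C5ar1* (a C5a receptor). Of the terminal genes, *Hc*, which encodes C5, differed by -0.01 (SE 0.14) and *C8g* had the highest difference of the list at 0.14 (SE 0.09).

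Regulators and receptors were near 0 with a few lower values. *Cd46* differed by -0.24 (SE 0.10), and by -0.30 to -0.05 over the alternatives. *Cd55*, which speeds the decay of convertases, differed by -0.15 (SE 0.18), *Cr1l* by -0.10 (SE 0.07) and *Cd59b* by -0.11 (SE 0.18). *Clu*, or clusterin, differed by 0.03 (SE 0.08) and *Itgam*, a chain of complement receptor 3, by 0.04 (SE 0.10). The sign of the difference changed in 3 of the scalings for *Hc*, in 2 for *Clu* and *Itgam* and in 1 for *Cd59b*. *C3ar1*, the receptor of C3a, had the lowest difference of the list at -0.46 (SE 0.26), with -4.13 to -4.61 in control mice and -4.29 to -5.54 in MS mice, and was above background in 3 of the 4 MS mice. Over the alternatives the difference of *C3ar1* ran from -0.76 to -0.06.

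Deviations from the group mean do not use the contrast behind the choice of the genes, so it could be tested whether the 9 genes varied together from mouse to mouse. With 1 probe per gene, 36 pairs were compared over the 8 mice by an exact permutation test that ordered the mice within their groups in all 576 ways (two-sided). The smallest p this allows is 0.0017. At a Benjamini-Hochberg adjusted p of 0.05, 2 of the 36 pairs passed with Pearson's r and 0 with Spearman's rho, where the smallest adjusted p was 0.0625.

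The first pair was *C3* and *C4b*. Control 8.2 lay lowest in its group for both, at -0.44 from the mean for *C3* and -0.37 for *C4b*, and control 8.5 highest, at 0.33 and 0.28. Among MS mice, MS 5.3 was lowest at -0.24 and -0.15 and MS 7.1 highest at 0.24 and 0.15, while MS 7.2 and MS 7.6 were within 0.02 of the mean for both genes. Pearson's r was 0.95 (exact permutation p = 0.0017, adjusted p = 0.0313) and Spearman's rho was 0.90 (p = 0.0017, adjusted p = 0.0625).

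This relation kept its size when mice were left out. It was r = 0.84 without the 2 mice farthest from the median of *C3*, ran from 0.88 to 0.98 with each mouse left out in turn, and was 0.99 with the mean of the slide row subtracted too. Over the scalings r ran from 0.94 to 0.96. The adjusted p of *C3* and *C4b* nevertheless lay above 0.05 with normexp correction, with quantile scaling and in the authors' table, where 0 of the pairs passed.

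**Figure D4:**
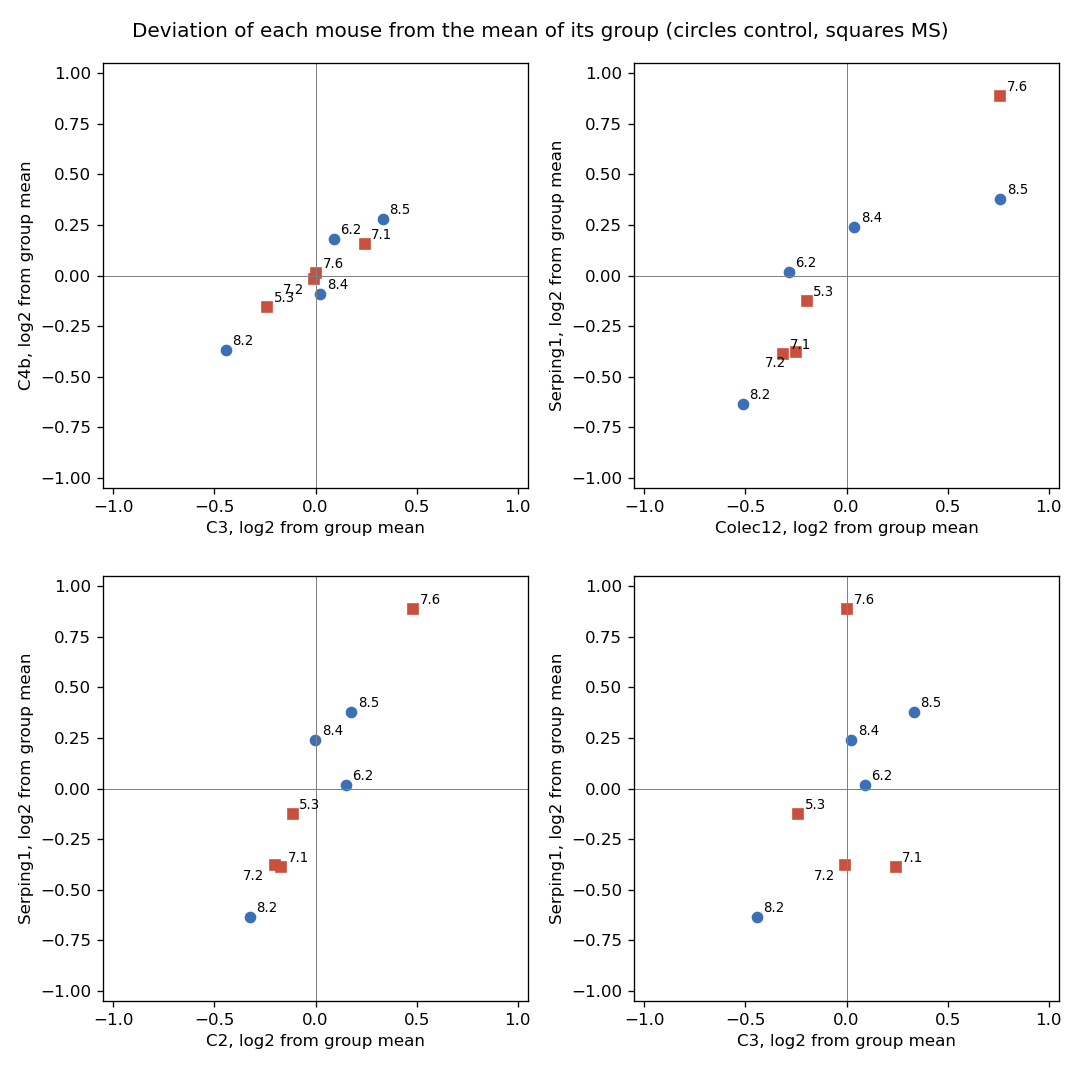
Deviation of each mouse from the mean of its group (both axes, log2) for *C3* and *C4b*, *Colec12* and *Serping1*, *C2* and *Serping1*, and *C3* and *Serping1*; circles are control and squares MS mice, labeled with their number. *C3* and *C4b* lie along a line (r = 0.95), *Colec12* and *C2* rise with *Serping1* (r = 0.90 and 0.96), and *C3* and *Serping1* scatter (r = 0.42).

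The second pair was *Colec12* and *Serping1*, with r = 0.90 (exact permutation p = 0.0017, adjusted p = 0.0313) and rho = 0.90 (p = 0.0035, adjusted p = 0.0625). Control 8.2 was lowest and control 8.5 highest of the control mice in both genes, and MS 7.6 was far above the other MS mice, by 0.76 from the mean for *Colec12* and 0.89 for *Serping1*. Without the 2 mice farthest from the median of *Colec12* r was 0.88, and without MS 7.6 it was 0.81.

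*C2* followed the same mice. With *Serping1* it had r = 0.96, no lower than either pair above, but its exact permutation p of 0.0243 became 0.219 after adjustment. With *Colec12* it had r = 0.84 (exact permutation p = 0.0243, adjusted p = 0.219). Without MS 7.6, r was 0.88 with *Serping1* and 0.67 with *Colec12*. The r of *C2* and *Colec12* was 0.55 without the 2 mice farthest from the median of *Colec12*. *C3* and *Serping1* had r = 0.42 (p = 0.318, adjusted p = 0.635). Of the pairs with *Colec11*, the lowest r was -0.66 with *C4b* (exact permutation p = 0.135, adjusted p = 0.609).

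In each group, markers of fibroblasts and meninges were highest in the same mouse as *Serping1*, *Colec12* and *C2*. All 10 listed markers were well above background on all 8 arrays. Their mean log2 level was -0.17 in control 8.2, 0.77 in control 6.2, 1.07 in control 8.4 and 1.45 in control 8.5, and in MS mice 0.33 in MS 5.3, 0.25 in MS 7.1, 0.07 in MS 7.2 and 1.57 in MS 7.6. The lowest control mouse and the highest mouse of each group were thus the same as for *Serping1*, and also as for the microglia markers below. Among control mice, *C3* and *C4b* too were lowest in control 8.2 and highest in control 8.5. They parted from the markers among MS mice, where MS 7.1 was highest for both. MS 7.6, the dimmest array, was also the highest MS mouse for astrocyte, reactive astrocyte, choroid plexus, endothelial and neuron markers. Another MS mouse was highest for the ependyma, pituitary, blood and hypothalamus lists. The summed signal of the list ran from 16.5 to 45.3 times the 75th percentile of the array in control and from 20.1 to 48.7 in MS mice, and 10 of 10 markers had a lower mean in MS mice, with 0 past the test. *Dcn*, which encodes decorin, ran from 2.80 to 3.86 in control and from 1.96 to 3.73 in MS mice, and *Ogn*, osteoglycin, from -1.34 to 1.29 and from -0.81 to 1.43. The part of these cells in the variation of *Serping1*, *Colec12* and *C2* was not tested.

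**Figure D5:**
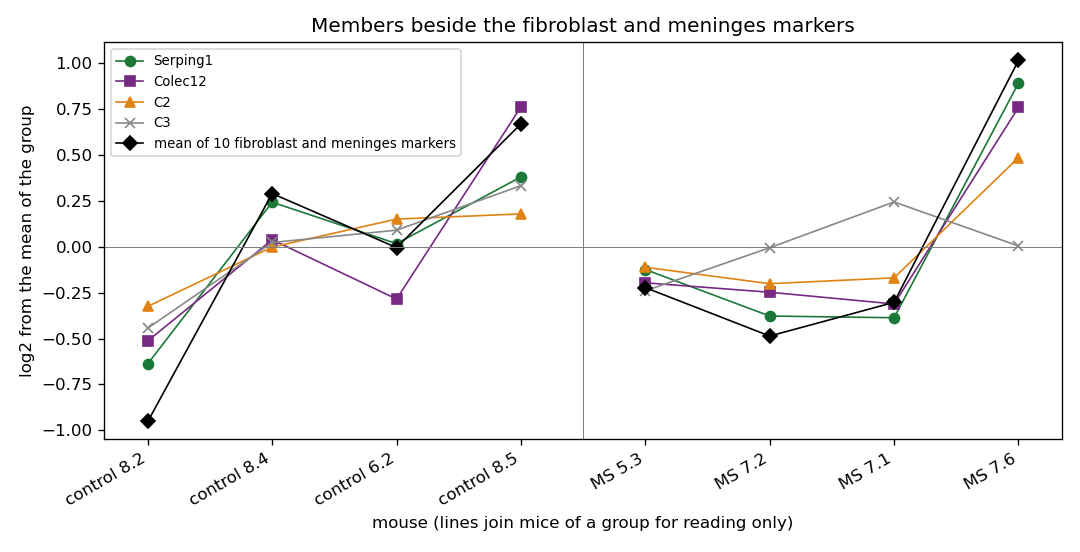
Deviation from the mean of the group (vertical axis, log2) in each mouse (horizontal axis) for *Serping1*, *Colec12*, *C2*, *C3* and the mean of 10 fibroblast and meninges markers. MS 7.6 lies 1.01 above its group for the markers and 0.89 for *Serping1*, while *C3* lies at 0.0036 there. Among control mice *C3* too is lowest in control 8.2 and highest in control 8.5.

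Microglia and astrocyte markers spanned a narrower range than the fibroblast markers. The mean log2 level of 10 microglia markers was 1.83 to 1.95 in control and 1.797 to 1.97 in MS mice. It was lowest in control 8.2 and MS 5.3 and highest in control 8.5 and MS 7.6. That of 10 astrocyte markers was 3.24 to 3.33 in control and 3.32 to 3.41 in MS mice. Genes of reactive astrocytes, of which 16 of 17 were tested, had a mean level of -1.48 to -0.80 in control and -1.21 to -0.93 in MS mice, and 0 passed the test. Of the 16, 12 had a lower mean in MS mice and 4 a higher one. Control 8.2 was the lowest of its group for the reactive astrocyte genes too, at -0.44 from the mean, as it was for *C3*, while MS 7.2 was the lowest MS mouse. The part of these cells in the levels of *C3* and *C4b* was not tested.

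The other tissues that the dissection could hold were read in the same way, and 0 of their markers passed the test. The mean log2 level of 8 choroid plexus markers was -2.33 to -1.80 in control and -2.30 to -1.95 in MS mice, and that of 8 endothelial markers was 0.57 to 0.72 and 0.56 to 0.76. Ependyma markers, 6 in number, lay at 1.19 to 1.35 in control and 1.046 to 1.28 in MS mice. The groups overlapped for 6 neuron markers, at 4.66 to 4.81 and 4.78 to 4.85, and for 5 blood markers, at 2.31 to 2.86 and 2.48 to 3.16. The mean was higher in MS mice for 5 of the 6 neuron markers and lower for 1. The mean was lower in MS mice for 6 of 6 ependyma markers, with a median difference of -0.11, and for 6 of 6 pituitary hormone genes, with a median of -0.72 and the lowest value, -2.19 (SE 0.87), for *Tshb*. The mean log2 level of the pituitary genes was 3.67 in control 6.2. It was 0.17 to 1.29 in the other control mice and 0.17 to 0.92 in MS mice. Control 6.2 thus set much of the difference in that level. Of the 10 hypothalamus genes 6 were lower, among them *Hcrt*, which encodes orexin, at -1.45 (SE 0.62), and *Pmch*, melanin-concentrating hormone, at -0.46 (SE 0.13), both with an unadjusted limma p under 0.05, as *Tshb* had. Over the alternatives, the difference ran from -3.09 to 0.20 for *Hcrt*, from -0.75 to -0.18 for *Pmch* and from -3.68 to -0.71 for *Tshb*. *Hcrt* thus did not keep its sign in all of them.

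Across the array, the probes most like each gene over the 8 mice, by r of deviations from the group mean among 23325 named probes, are listed as a description. For *C3* they were *Pld4* (0.98), *Ext2* (0.97) and *Cd82* (0.97), and for *C4b* they were *Zkscan2*, *Chid1* and *Usp19* (all 0.98). For *Serping1* they were *Nadk* (0.996), *Tgfbi* (0.99) and *Thbd* (0.99), for *Colec12* *Tmem64* (0.995), *Ttc30a2* (0.99) and *Rnase4* (0.99), and for *C2* *Hilpda*, *Copz2* and *Trappc1* (all 0.99). These are the highest values among 23325 probes over only 8 mice, and nothing is read from them. For *Serping1* 1.56% of the probes and for *C2* 1.76% had r over 0.9, against 0.29% for *C3*, 0.30% for *C4b* and 0.15% for *Colec11*. The genes closest to *Colec11* were *Ints6*, *Pcdhb20* and *Rimbp3* (all 0.97), to *Cfb* *Sox15* (0.98), *Fpr2* (0.97) and *Tnks2* (0.97), to *Masp1* *Ubr7* (0.98), *Zkscan7* (0.97) and *Hcar2* (0.97), and to *Cd59a* *Muc13* (0.98), *Slc36a2* (0.96) and *Ucma* (0.96).

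Promoters from RefSeq (GRCm38.p6) were at hand for 3 of the 9 genes, *C3*, *Colec11* and *Cd59a*. That of *C3* is shown because its pair with *C4b* passed the test above. The 250 bases before its start, chr17:57228137-57228386 on the minus strand, are given 5′ to 3′ with the C/EBP motif in capitals.
*C3* promoter: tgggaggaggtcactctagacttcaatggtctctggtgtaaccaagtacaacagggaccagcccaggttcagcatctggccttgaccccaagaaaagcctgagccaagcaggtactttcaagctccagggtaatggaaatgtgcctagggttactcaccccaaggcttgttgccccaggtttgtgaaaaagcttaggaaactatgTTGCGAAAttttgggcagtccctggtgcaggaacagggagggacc
Both strands were searched for 5 motifs, TTGCNNAA (C/EBP), TTCNNNGAA (STAT), GAAANNGAAA (the interferon-stimulated response element), the NF-kB site and TATAAA (the TATA box). In *C3* only TTGCNNAA occurred, from base 45 to base 38 before the start, a motif that 9.56% of 32851 promoters hold in the same window. *Colec11* had TTCNNNGAA from base 250 to 242 and, overlapping it, GAAANNGAAA from base 244 to 235, which 7.02% and 2.98% of promoters hold, and *Cd59a* had GAAANNGAAA from base 187 to 178. The NF-kB site is in 7.25% and TATAAA in 12.4% of promoters. A match says only that these letters stand in the window.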

How the data were processed

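The 8 hypothalamus arrays, 4 of control and 4 of MS mice by the sample labels, were analysed. The authors deposited the scanner output, in which Agilent Feature Extraction 10.10.1.1 gives each spot a processed intensity with the background subtracted, and flags for outliers and for spots well above background. A deposited table by the authors holds log2 values of 34970 probes, and limma is the tool that the submitters' notes on processing give. Its scaling is not stated in any source used here. Its column medians were 8.656 to 8.657, and the order of the probes was that of the raw median signal.

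From there R 4.3.3 and limma 3.58.1 were used. Control and outlier spots were left out, log2 processed intensities were averaged per probe (59305 spots, 55681 probes) and each array's 75th percentile was taken off. Those flagged above background on 4 or more arrays were tested with lmFit and eBayes, two-sided, with Benjamini-Hochberg adjustment at 0.05. Intervals are 95% intervals of limma, and the number of arrays limits their precision. On simulated data with 4 mice a group, the test recovered 50% of probes changed by 0.5 on the log2 scale and 80% of those changed by 1. There, 50 probes were changed at each of 0.5, 1, 2 and 3 at once, with noise drawn separately for each probe. Large changes ease the adjusted threshold for small ones, so these shares do not carry over to arrays on which few probes change. Genes were named by accession for 27235 probes, by symbol for 2274 and by an older symbol for 200, with a RefSeq table. The brightest probe tested stood for a gene in the pairs and lists.

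The members, the lists of other complement genes and of cell type markers, the tests and the alternatives were chosen with earlier results of these data known. The lists were other complement genes by role and markers of microglia, astrocytes, reactive astrocytes, fibroblasts and meninges, choroid plexus, endothelium, ependyma, neurons, pituitary, blood and hypothalamus. Genes named are the 9 members with every probe, 15 other complement genes (1 more is not reported here), the highest and lowest difference of their list, the 3 genes most like each member and the markers that show a range. *Cd46*, *C1rb*, *Mbl2*, *Masp2* and the lectin genes below the filter were named after their values were seen. Alternatives were other background correction, scaling, filters and variance model, the authors' table, a block for the slide row or for the first part of the mouse number, and each mouse left out in turn.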

Additional observations from a re-analysis of the deposited data

Results flagged for a closer look

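In 90 groups of 4 mice (the probes of the 9 genes and of the other complement genes tested), 7 groups held a mouse far from the other 3, by Dixon's test at the 95% level. Chance gives about 1 in 20 groups. MS 7.6 lay apart for *Colec12*, at -1.68 with the nearest MS mouse at -2.63, and for *C2*, at 1.78 with the nearest at 1.19. It was also apart for *Cd55*, at -0.94 against -1.31 or lower. Control 8.5 lay apart for *Cd55*, at -0.55 against -1.23 or lower, and for *Masp2*, at 0.71 against 1.02 or higher. For *Masp1* probe C, control 8.5 was at -3.01 and the other control mice were at -7.16 or lower, and it was the only array on which that probe was well above background, while probe A put control 8.5 at -4.93. MS 5.3 lay apart for *C1qc*, at 1.16 against 1.497 or higher. Causes were not tested.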

How the results depend on the processing

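In 19 alternatives, 0 member probes and 0 other complement genes passed the adjusted p of limma, at 0.05. Over all probes 1 passed in slide row 2 alone and 1 with a random block for the first part of the mouse number, and 0 in the other 17. The correlation estimated for that block was -0.19, and a negative value makes the errors of the difference smaller. The number of member probes with a difference above 0, 2 of 11, was 2 to 6 with each mouse left out, and the highest, 6, came without control 8.5, while 5 were above 0 without MS 7.1 and 4 without MS 5.3 or MS 7.2. The difference of *Colec11* was 0.38 with normexp correction and 0.39 in the authors' table. Of the pairs, 2 passed, and 0 with normexp correction, quantile scaling or the authors' table. With each mouse left out 0 to 0 pairs passed. The 144 orders of 7 mice give a smallest p of 0.00694, which 6 of the pairs would have to reach for any to pass at it. With the row mean subtracted 0 passed, and none could, since 16 orders allow no p under 0.0625. *C2* changed sign in 7 of 19 alternatives, probe A of *Serping1* in 6, its probe B in 2 and *Colec12* in 1, all between -0.39 and 0.13. No paired analysis was possible because the groups share no mouse number. The pairs do not use the filter on dim probes other than through the members tested, and removing it was not run for them. The number of mice limits what could be detected.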
